A study of Homo sapiens with 19 samples.

Results

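Pools of 786-O cells were examined for 7 genes that mark the kidney lineage: PAX2, PAX8, LHX1, EMX2, WT1, CDH6 and CDH16. 786-O is an established clear cell renal carcinoma line. Its VHL is defective, and HIF-2α, which is the only HIF-α subunit that it makes in full length, escapes degradation in air. The genes are taken by symbol, from a set drawn up with earlier results of these data known. All 7 are among the 23441 gene symbols of the RNA-seq count table, and 6 of the 7 passed the filter on low counts, which kept 14225 genes. EMX2 did not pass. Every pool had been infected with a pRRL lentivirus that carries IRES.EGFP: empty in the control cells, with the HIF-1α cDNA in the HIF-1α re-expressing cells, and with the HIF-2α cDNA in the HIF-2α overexpressing cells. Endogenous HIF-2α was therefore present in all of them, and the pools differ from one another by infection as well as by the subunit. PolyA+ RNA-seq gave 3 libraries for each pool. ChIP-seq gave 7 lists of binding sites (peaks), each from a single library: HIF-2α and HIF-1β in control cells, the same pair in HIF-2α overexpressing cells, and HIF-1α, HIF-1β and HIF-2α in HIF-1α re-expressing cells. With 1 library per antiserum and pool, no test between peak lists is possible, and the lists hold positions without scores.

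The kidney arises from intermediate mesoderm. PAX2 and PAX8, paired box transcription factors, and the LIM homeodomain factor LHX1 mark that tissue, and LHX1 expression there depends on the PAX genes. WT1, a zinc finger factor, and the homeodomain factor EMX2 are needed for the metanephric mesenchyme and the ureteric bud to form a kidney, and WT1 later persists in podocytes. CDH6 (K-cadherin) is an adhesion molecule of the renal vesicle and the proximal tubule, and CDH16 (kidney-specific cadherin) of the basolateral membrane of mature tubules. PAX8 and PAX2 remain on in most clear cell carcinomas, where their proteins serve pathologists as evidence of renal origin. HIF-1α and HIF-2α bind DNA as dimers with HIF-1β at the hypoxia response element, whose core reads ACGTG or GCGTG.

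Total counts per library were between 27852754 and 54287621, with a median of 39508943. HIF1A, the gene carried by the first virus, was at 171.5, 1682 and 473 CPM (counts per 1000000, scaled by TMM factors) in the libraries labelled HIF-1α re-expressing, and at 30.4, 36.7 and 152 CPM in the control libraries. The control library numbered 3 thus stood apart, and it also had CA9, a HIF-1α target, at 14.3 CPM where the other control libraries had 0 and 0.171 CPM. EPAS1, the gene for HIF-2α, was at 946, 3244 and 880 CPM in the HIF-2α overexpressing libraries against 456, 224 and 162 CPM in the control libraries, but also at 575, 627 and 397 CPM in the HIF-1α re-expressing libraries. Libraries with the same replicate number resembled one another across pools. Each difference below is therefore given from a fit with the pool alone and from a fit that adds the replicate number as a block. Of 14225 genes tested by edgeR's quasi-likelihood test, the block moved the number called at an adjusted p under 0.05 from 0 (0.0%) to 1132 (7.96%; 5.41% higher and 2.55% lower) for HIF-1α re-expressing against control cells, from 0 (0.0%) to 38 (0.267%; 0.112% higher and 0.155% lower) for HIF-2α overexpressing against control cells, and from 7 (0.0492%) to 843 (5.93%; 4.54% higher and 1.38% lower) for HIF-1α re-expressing against HIF-2α overexpressing cells. At an unadjusted p under 0.05 the pool-only fit had 2757 (19.4%), 838 (5.89%) and 1941 (13.6%) genes. DESeq2 called 753 (5.28%), 65 (0.413%) and 649 (4.44%), and 3036 (21.8%), 487 (3.4%) and 1799 (12.2%) with the block.

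The 7 genes spanned the range from abundant to absent. Per kilobase of annotated exon, averaged over the 9 libraries, the levels were in the order PAX8 (33.2 CPM per kb), CDH6 (14.6), CDH16 (5.9), LHX1 (4.18), PAX2 (2.45), WT1 (1.6) and EMX2 (0.000634). PAX8 lay above 94.2% of the 22535 genes with a length, CDH6 above 86.5%, CDH16 above 73.3%, LHX1 above 68%, PAX2 above 61% and WT1 above 56.8%. The ranges of neighbours in this order overlapped over the 9 libraries, apart from EMX2, which lay below WT1 in each of them. In bulk RNA the share of cells that express a gene and its level per cell cannot be told apart. PAX8 was the main PAX gene by level, and among the other PAX genes in the table only PAX6, at 7.22 to 16.3 CPM, and PAX9, at 0.169 to 2.46 CPM, passed the low-count filter.

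**Figure D1:**
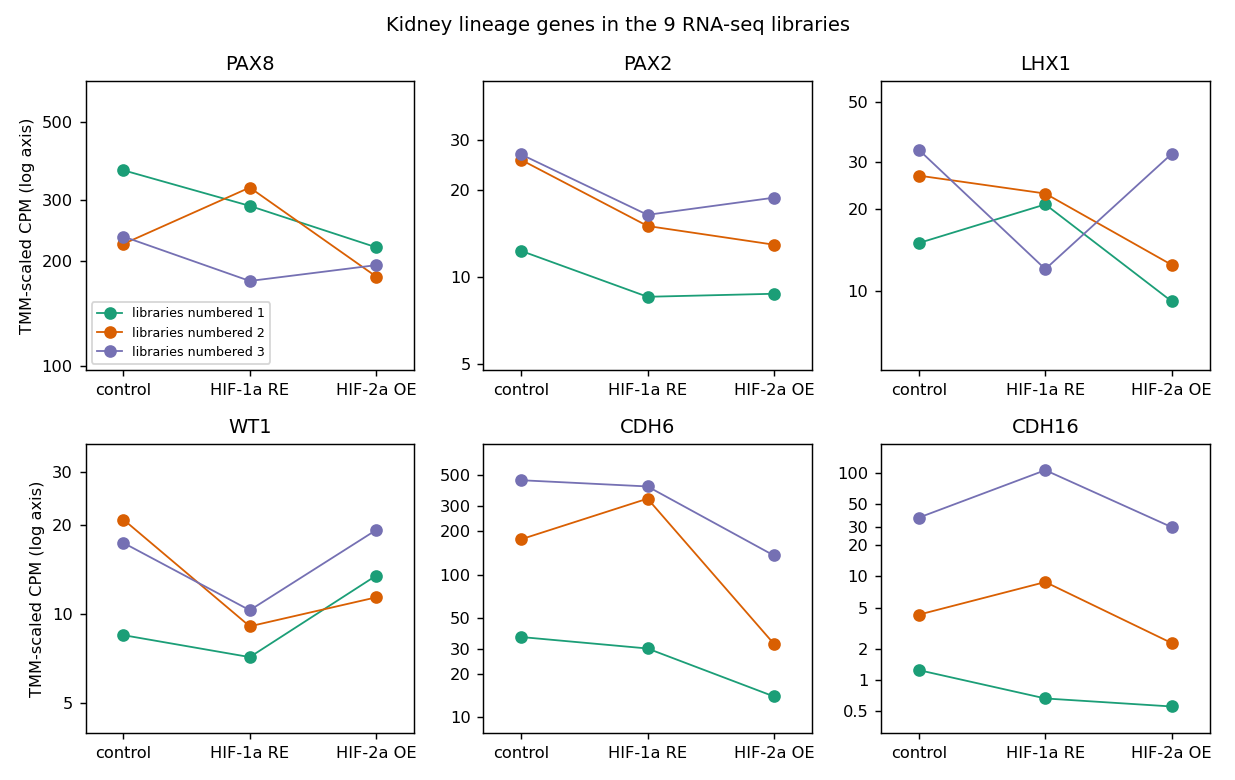
Level of each kidney lineage gene (TMM-scaled CPM, log axis, a separate scale per gene) in control, HIF-1α re-expressing (HIF-1a RE) and HIF-2α overexpressing (HIF-2a OE) cells. Points are single libraries and lines join those with the same replicate number. The lines of PAX2, CDH6 and CDH16 lie apart by number, with the libraries numbered 1 lowest in all pools, and those of PAX8, LHX1 and WT1 cross.

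PAX8, on the minus strand at chr2:113973574-114036498 (GRCh37), is a factor of the nephric lineage and of the thyroid. Its level was 364, 224 and 235 CPM in the control libraries numbered 1, 2 and 3, 288, 325 and 175 CPM in HIF-1α re-expressing cells, and 219, 181 and 195 CPM in HIF-2α overexpressing cells. All HIF-2α overexpressing libraries lay below all control libraries, and the HIF-1α re-expressing libraries overlapped both. How many of all tested genes separate in this way was not counted, so the separation is a description only. The log2 fold change of HIF-2α overexpressing against control cells was -0.47 (SE 0.28, adjusted p = 0.842), or -0.44 (SE 0.23, adjusted p = 0.401) with the replicate block. HIF-1α re-expressing against control cells gave -0.06 (SE 0.28, adjusted p = 0.923), and the value turned to 0.16 without the HIF-1α re-expressing library 3 and to 0.19 without the control library 1. Neither comparison passed the threshold in either fit. PAX8 was thus the most abundant and the least variable of the 6 genes, with an SD of log2 CPM of 0.372 over the 9 libraries against a median of 0.443 for all tested genes. The antisense gene PAX8-AS1 overlaps the locus and was not analysed here, and since the strand setting of the counting is not given in the sources used here, antisense reads within the PAX8 value cannot be told apart.

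Within 10 kb of a PAX8 start site there were 3 binding sites. The one found most often lay in an intron, 0.85 kb downstream of an internal start site and 38.0 kb from the 5′ end of the gene. The antisense genes PAX8-AS1 and RP11-65I12.1 also span its mean midpoint. This site was in 6 of the 7 lists, missing from HIF-2α in HIF-1α re-expressing cells, and the midpoints lay within 808 bp of each other. A second site, 4.98 kb upstream of the 5′ end, was in the lists of HIF-2α and HIF-1β in control cells and of HIF-2α in HIF-2α overexpressing cells, and in no list of the HIF-1α re-expressing cells. The third, 1.57 kb from another internal start site, was in 3 lists. The 300 bases around the mean midpoint of the first and second sites are shown as the gene's most widely shared site and as the only upstream one. Capitals in every sequence here mark an HRE core (ACGTG or GCGTG, or CACGT or CACGC when it lies on the other strand) or an AP-1 element (TGACTCA or TGAGTCA), and all are the forward strand of GRCh37:
PAX8 intron, chr2:113998357-113998656: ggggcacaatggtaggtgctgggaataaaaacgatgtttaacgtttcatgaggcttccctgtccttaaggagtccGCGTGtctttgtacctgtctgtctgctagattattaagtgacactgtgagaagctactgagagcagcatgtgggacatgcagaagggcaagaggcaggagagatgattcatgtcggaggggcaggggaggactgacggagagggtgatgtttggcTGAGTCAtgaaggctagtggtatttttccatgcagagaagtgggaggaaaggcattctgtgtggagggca
PAX8 upstream, chr2:114041330-114041629: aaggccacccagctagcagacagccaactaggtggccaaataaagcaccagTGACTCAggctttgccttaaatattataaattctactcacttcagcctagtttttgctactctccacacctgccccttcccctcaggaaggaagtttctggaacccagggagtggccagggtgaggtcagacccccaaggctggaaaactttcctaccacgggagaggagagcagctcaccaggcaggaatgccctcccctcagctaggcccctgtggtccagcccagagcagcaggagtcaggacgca
The intronic window held 1 HRE core and 1 AP-1 element, and the upstream window 1 AP-1 element without an HRE core. An HRE core was found in 59.7% and an AP-1 element in 27.5% of the equal windows around all HIF-2α peaks of the control cells, so that neither sets the PAX8 sites apart.

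PAX2, on the plus strand at chr10:102495153-102589701, acts with PAX8 in the nephric duct and the mesenchyme. It was at 12.3, 25.5 and 26.7 CPM in the control libraries, 8.53, 15.03 and 16.4 CPM in HIF-1α re-expressing cells, and 8.74, 12.9 and 18.9 CPM in HIF-2α overexpressing cells, from 348 to 1023 counts per library. The control libraries overlapped both other pools, because the control library numbered 1 was low. Within a number, however, the control library was the highest of the 3 each time. The ratio of HIF-1α re-expressing to control was 0.693, 0.589 and 0.617 for the numbers 1, 2 and 3, and that of HIF-2α overexpressing to control was 0.71, 0.507 and 0.708, both taken over the same control libraries. The log2 fold change against control was -0.69 (SE 0.40, adjusted p = 0.36) in HIF-1α re-expressing cells and -0.67 (SE 0.40, adjusted p = 0.842) in HIF-2α overexpressing cells. The replicate block left these values at -0.67 (SE 0.19, adjusted p = 0.0597) and -0.66 (SE 0.19, adjusted p = 0.213), just outside and outside the threshold. DESeq2 with the same block put them at adjusted p = 0.00807 and 0.0447. Whether PAX2 passes thus depends on the tool, while its direction was the same in all 18 alternatives for each comparison. HIF-1α re-expressing and HIF-2α overexpressing cells differed by -0.02 (SE 0.40, adjusted p = 0.991), and this value turned to 0.21 without the HIF-1α re-expressing library 1 and to 0.27 without the HIF-2α overexpressing library 3.

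The PAX2 start sites had 2 binding sites within 10 kb. The first lay 4.28 kb upstream of the 5′ end, outside any annotated gene, and was in 5 lists: both lists of the HIF-2α overexpressing cells, HIF-1α and HIF-1β in HIF-1α re-expressing cells, and HIF-1β in control cells. An HRE core lay within 150 bp of the midpoint in 4 of these 5 peaks. The second lay 0.218 kb upstream of an internal start site, in an intron 9.97 kb from the 5′ end, with peaks of HIF-2α in control cells and of HIF-1α in HIF-1α re-expressing cells that were 14 bp apart. No HRE core or AP-1 element lay within 150 bp of these midpoints, and no HIF-1β list had a peak there. The upstream site is shown because it is the one shared by HIF-1α and overexpressed HIF-2α:
PAX2 upstream, chr10:102490723-102491022: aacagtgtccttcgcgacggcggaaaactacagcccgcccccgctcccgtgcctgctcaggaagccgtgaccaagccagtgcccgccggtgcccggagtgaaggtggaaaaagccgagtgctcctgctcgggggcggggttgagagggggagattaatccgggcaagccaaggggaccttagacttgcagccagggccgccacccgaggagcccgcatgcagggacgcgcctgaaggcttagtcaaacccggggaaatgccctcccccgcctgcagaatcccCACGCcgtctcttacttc
The only HRE core of that window lay close to its right edge, on the reverse strand.

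LHX1, on the plus strand at chr17:35294084-35301912, is needed for the intermediate mesoderm to form the nephric duct. It was at 15.01, 26.7 and 33.2 CPM in the control libraries, 20.9, 22.9 and 12.0 CPM in HIF-1α re-expressing cells, and 9.12, 12.5 and 32.1 CPM in HIF-2α overexpressing cells. The pools overlapped, and the numbers did not order the libraries in the same way in each pool: number 3 was the lowest among HIF-1α re-expressing and the highest among the other cells. The log2 fold change against control was -0.43 (SE 0.48, adjusted p = 0.65) for HIF-1α re-expressing and -0.48 (SE 0.48, adjusted p = 0.874) for HIF-2α overexpressing cells. With the block these were -0.27 (SE 0.43, adjusted p = 0.69) and -0.55 (SE 0.43, adjusted p = 0.564). HIF-1α re-expressing against HIF-2α overexpressing cells gave 0.05 (SE 0.48, adjusted p = 0.976), and the value was negative, -0.28 to -0.04, without the library 1 or 2 of either pool. Of the 6 genes, LHX1 had the largest share of variance that neither pool nor number took up, 61%. Its 5′ end lay 0.129 kb from the midpoint of a HIF-1α peak in HIF-1α re-expressing cells, with no peak of another list and no HRE core. A second site, 6.67 kb from the nearest LHX1 start site, was 0.003 kb from the start of the neighbouring gene AATF and was in the lists of HIF-1α and HIF-1β in HIF-1α re-expressing cells, with 4 HRE cores. Farther upstream, at 35.2 kb in the divergent transcript LHX1-DT, a site was shared by the other 5 lists, all with an HRE core: HIF-2α and HIF-1β in control and in HIF-2α overexpressing cells and HIF-2α in HIF-1α re-expressing cells. HIF-1α in HIF-1α re-expressing cells was thus listed at the start of LHX1 and near AATF, and HIF-2α at the distal site in all pools.

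EMX2, on the plus strand at chr10:119301956-119309057, acts in the ureteric bud. It had 0 counts in 8 libraries and 1 count, or 0.0186 CPM, in the HIF-1α re-expressing library numbered 3. A count of 0 allows up to 3 counts, which is 0.0722 to 0.105 CPM in the 8 libraries and covers counting error only, so no difference between pools was detectable at this depth and no fold is given. EMX2OS, a transcript of the opposite strand at the same locus, was detected with 16 to 29 counts (0.385 to 0.683 CPM) in every library. No peak lay within 10 kb or 50 kb of EMX2, and the nearest was a HIF-1β peak 99.7 kb upstream.

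WT1, on the minus strand at chr11:32409321-32457110, acts in the mesenchyme and the podocyte. It was at 8.49, 20.8 and 17.4 CPM in the control libraries, 7.16, 9.09 and 10.3 CPM in HIF-1α re-expressing cells, and 13.5, 11.4 and 19.2 CPM in HIF-2α overexpressing cells, from 292 to 746 counts per library. Every HIF-1α re-expressing library lay below every HIF-2α overexpressing library, and the control libraries overlapped both. The share of all tested genes that separate so was not counted, and this too is a description only. The log2 fold change was -0.81 (SE 0.36, adjusted p = 0.253) for HIF-1α re-expressing against control cells and -0.73 (SE 0.36, adjusted p = 0.405) against HIF-2α overexpressing cells. With the block these were -0.77 (SE 0.28, adjusted p = 0.1) and -0.74 (SE 0.28, adjusted p = 0.151), and DESeq2 with the block put the first at adjusted p = 0.0392 and the second at 0.0699. HIF-2α overexpressing against control cells gave -0.08 (SE 0.36, adjusted p = 0.981), and turned to 0.06, 0.18 and 0.0011 without the HIF-2α overexpressing library 2, the control library 2 and the control library 3. The pair of values for HIF-1α re-expressing cells did not pass the threshold in edgeR.

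The WT1 site shared by most lists lay in an intron, 14.3 kb from the 5′ end and 3.71 kb upstream of the nearest start site. It was in 5 lists, those of HIF-2α in all 3 pools and of HIF-1β in control and HIF-2α overexpressing cells, but in HIF-1α re-expressing cells the HIF-1α and HIF-1β lists lacked it. Of the 1690 merged sites with a HIF-2α peak of control cells, 57.0% were in at least 5 lists, so this is common for such a site. The window is shown because HIF-2α was listed at it in every pool:
WT1 intron, chr11:32442709-32443008: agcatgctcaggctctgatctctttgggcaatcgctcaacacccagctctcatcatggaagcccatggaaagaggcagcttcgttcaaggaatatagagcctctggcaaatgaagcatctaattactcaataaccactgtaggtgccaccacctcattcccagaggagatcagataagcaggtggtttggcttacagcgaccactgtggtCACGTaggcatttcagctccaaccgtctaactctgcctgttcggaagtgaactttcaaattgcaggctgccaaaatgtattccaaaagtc
It held 1 HRE core, on the reverse strand. HIF-1β of the HIF-1α re-expressing cells had a peak in an exon, 0.472 kb from the nearest start site, and overexpressed HIF-2α a peak beyond the 3′ end of the gene, 9.14 kb from the nearest start site, whose window held 1 HRE core and 1 AP-1 element.

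CDH6, on the plus strand at chr5:31193793-31329253, had the largest log2 fold change of the 6 genes in the pool-only fit. It was at 36.5, 176 and 457 CPM in the control libraries, 30.4, 339 and 413 CPM in HIF-1α re-expressing cells, and 14.03, 32.8 and 136 CPM in HIF-2α overexpressing cells, with at least 583 counts in each library. The pools overlapped widely because the libraries numbered 1 were low in each. Within each number the HIF-2α overexpressing library was the lowest: it had 0.384, 0.186 and 0.298 of the control level, and the HIF-1α re-expressing library had 2.16, 10.4 and 3.04 times its level. HIF-1α re-expressing cells exceeded HIF-2α overexpressing cells by a log2 fold change of 2.10 (SE 1.11, adjusted p = 0.436) without the block and by 2.04 (SE 0.38, adjusted p = 0.0172) with it. This was the only value of the 6 genes that passed in the blocked edgeR fit. It was 1.35 to 2.50 when the libraries of 1 number were left out of the blocked fit. The adjusted p stayed under the threshold without number 1 and without number 2, but not without number 3, where the value was 2.26. Against control cells, CDH6 of HIF-2α overexpressing cells was at -1.87 (SE 1.10, adjusted p = 0.842), or -1.78 (SE 0.37, adjusted p = 0.0991) with the block and -1.78 (adjusted p = 0.000125) in DESeq2 with the block. HIF-1α re-expressing against control cells gave 0.23 (SE 1.07, adjusted p = 0.926). This value turned to -0.29, -0.04 and -0.27 without the control library 1, the HIF-1α re-expressing library 2 and the HIF-1α re-expressing library 3.

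No HIF-α subunit was listed within 10 kb of CDH6. HIF-1β alone had peaks there, in control and in HIF-1α re-expressing cells, 690 bp apart around the 5′ end, and 1 of the 2 peaks had an HRE core. The bases upstream of the start site are shown as the promoter of the gene that differed most:
CDH6 upstream, chr5:31193674-31193792: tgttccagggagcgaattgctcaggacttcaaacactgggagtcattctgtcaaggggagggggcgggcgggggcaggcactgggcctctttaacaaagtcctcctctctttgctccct
No capitals occur in it. The nearest HIF-2α peaks were 46.1 kb or more from a start site. Overexpressed HIF-2α was listed at sites 93.3, 86.8 and 73.1 kb upstream, each with an HRE core and with CDH6 as the nearest coding gene. The first of these was also in the lists of HIF-2α in HIF-1α re-expressing cells and of HIF-1β in control cells. The peak at 46.1 kb, also of overexpressed HIF-2α, was nearer to a start site of DROSHA.

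CDH16, on the minus strand at chr16:66942025-66952820, varied most among the libraries. It was at 1.24, 4.27 and 36.9 CPM in the control libraries, 0.662, 8.81 and 106 CPM in HIF-1α re-expressing cells, and 0.554, 2.27 and 29.9 CPM in HIF-2α overexpressing cells. In counts it went from 23 in the HIF-2α overexpressing library 1 to 5691 in the HIF-1α re-expressing library 3. The libraries numbered 3 exceeded those numbered 1 of the same pool 29.7-fold in control, 160-fold in HIF-1α re-expressing and 53.9-fold in HIF-2α overexpressing cells, which is far more than the pools differed within a number. HIF-1α re-expressing cells were at 1.20, 3.88 and 3.55 times the HIF-2α overexpressing cells for the numbers 1, 2 and 3, a log2 fold change of 1.82 (SE 1.75, adjusted p = 0.687), or 1.54 (SE 0.39, adjusted p = 0.0511) with the block. DESeq2 with the same block put it at 1.49 (adjusted p = 0.00243), past the threshold. Without the libraries numbered 1 the blocked values were 1.86 with a call, and 1.28 (adjusted p = 0.0496) against control cells. Without a block, leaving out the HIF-1α re-expressing library 3 turned the value against HIF-2α overexpressing cells to -1.20 and that against control cells from 1.44 (SE 1.73, adjusted p = 0.672) to -1.58. The pool-only value of CDH16 in HIF-1α re-expressing cells thus rests on that library. HIF-2α overexpressing against control cells gave -0.38 (SE 1.71, adjusted p = 0.981), which turned to 1.98 without the control library 3 and to 0.18 and 0.09 without the HIF-2α overexpressing library 1 or 2.

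At the 5′ end of CDH16 a site 0.16 kb upstream was in the lists of HIF-1β in control cells and of HIF-2α in HIF-2α overexpressing cells. A second site, 7.54 kb upstream, was in 6 lists, all but HIF-2α in control cells. It lay 0.918 kb from a start site of RRAD, a neighbouring gene that encodes a small GTPase, and so was nearer to RRAD than to CDH16.

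Over the 6 tested genes, none passed the pool-only fit in any comparison, against 0.0%, 0.0% and 0.0492% of all genes. In the blocked fit 0 of 6 passed for HIF-1α re-expressing against control cells (7.96% of all genes), 0 of 6 for HIF-2α overexpressing against control cells (0.267%), and 1 of 6, CDH6, for HIF-1α re-expressing against HIF-2α overexpressing cells (5.93%). The median log2 fold change over the 6 genes in the blocked fit was -0.16, -0.60 and 0.33 in these comparisons, beside 0.04, -0.01 and 0.01 over all tested genes. In HIF-2α overexpressing against control cells all 6 values were negative, from -0.03 for WT1 to -1.78 for CDH6, none of them called. The share of negative values over all tested genes was not counted. The 6 values rest on the same libraries, and some of the genes vary together, so their signs are not separate observations. Of 18 alternatives, WT1 turned positive in 4 and CDH16 in 3. A count of 1 of 6 is too small to set against the 5.93%.

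**Figure D2:**
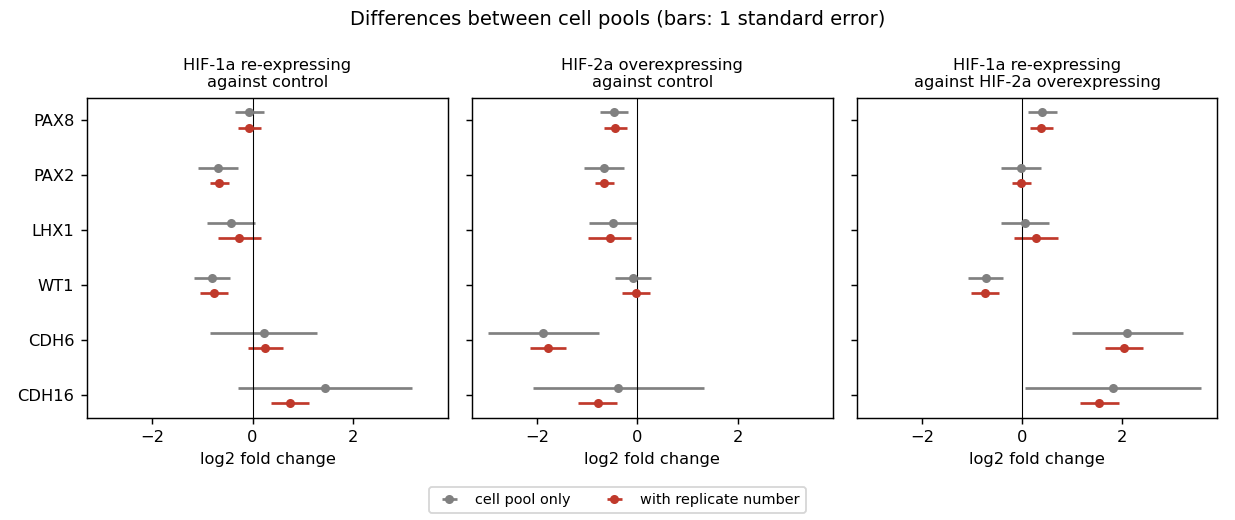
Log2 fold change of the 6 tested genes (x axis) in the 3 comparisons between cell pools, from the fit with the pool only (grey) and with the replicate number as a block (red); bars are 1 standard error. The block shortens the bars of PAX2, CDH6 and CDH16, and CDH6 in HIF-1α re-expressing against HIF-2α overexpressing cells is the only called value, at 2.04 in the blocked fit.

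The share of variance between replicate numbers exceeded that between pools for 5 of the 6 genes, all but WT1. For PAX8 and LHX1 this order is descriptive only, since the test of the number, given below, did not pass for them. Of the variance of log2 CPM over the 9 libraries, the number took 92.2% for CDH16, 68.5% for CDH6, 65.6% for PAX2, 34.5% for PAX8, 30.7% for WT1 and 22.4% for LHX1. The pools took 4.7% for CDH16, 26.5% for CDH6, 31.2% for PAX2, 29.7% for PAX8, 43.1% for WT1 and 16.6% for LHX1. Among all tested genes the median share was 35.9% for the number and 32.6% for the pools. Tested as a term in the blocked fit, the number passed an adjusted p of 0.05 for 2190 of 14225 genes (15.4%) and for 3 of the 6: CDH16 (adjusted p = 0.000344), CDH6 (adjusted p = 0.0028) and PAX2 (adjusted p = 0.0181). PAX8 (adjusted p = 0.277), LHX1 (adjusted p = 0.367) and WT1 (adjusted p = 0.224) did not pass. CDH6 was 12.5-fold, 13.6-fold and 9.68-fold higher in number 3 than in number 1 in control, HIF-1α re-expressing and HIF-2α overexpressing cells, and PAX2 2.16-fold, 1.93-fold and 2.16-fold. CDH16 and CDH6 had SDs of 2.67 and 1.89 on the log2 scale, above 99.9% and 98.9% of the tested genes.

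**Figure D3:**
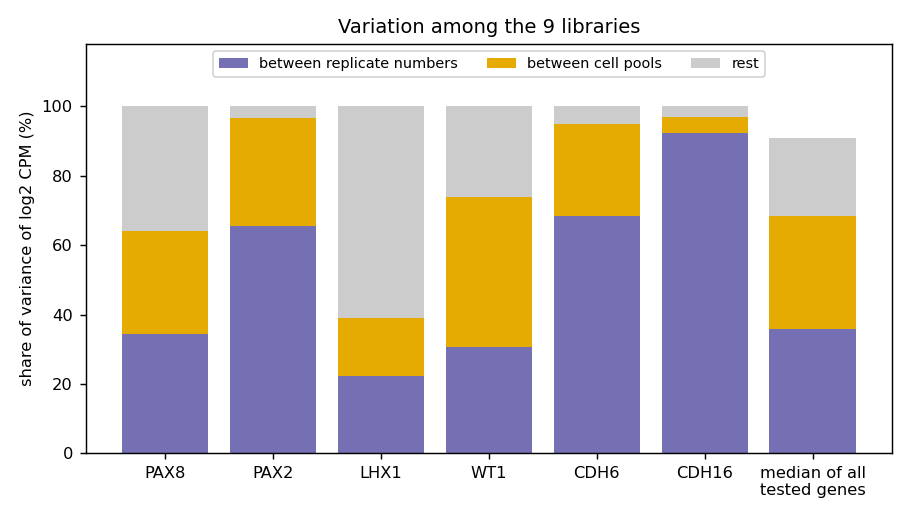
Share of the variance of log2 CPM over the 9 libraries (y axis, %) that lay between replicate numbers, between cell pools and in the rest, for the 6 genes and as the median of each share over all tested genes (these medians need not add to 100). The number takes 92.2% for CDH16 and 22.4% for LHX1.

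The labels do not say what the number stands for, and other measures moved with it. The summed level of 6 fibroblast marker genes was 1.56 to 2.64 CPM in the libraries numbered 1, 4.81 to 7.88 CPM in those numbered 2 and 9.64 to 18.2 CPM in those numbered 3. Almost all of it was LUM and COL1A1, which both passed the test of the number. COL1A2 had at most 3 counts in a library. Markers of endothelium summed to 0.411 to 4.17 CPM. Those of leukocytes summed to 29.1 to 161 CPM, nearly all CD68, which many cell types express, while CD3E was at 0 counts in every library. HBB, a globin gene of that list and not a leukocyte marker, was also at 0 counts in every library. The part of these measures in the results was not tested. VIM, a mesenchymal filament that renal carcinoma lines express, was at 3963 to 5671 CPM, and KRT8, an epithelial keratin, at 289 to 603 CPM.

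Across the 9 libraries CDH6 and CDH16 had a Pearson r of log2 CPM of 0.888, PAX2 and CDH6 of 0.807, and PAX2 and WT1 of 0.724, while PAX8 and WT1 had -0.523. The libraries share their numbers and pools, so these are descriptions only. The genes whose pattern was most like that of CDH16 were SMIM1 (r = 0.983), CFI (0.98) and KLHDC9 (0.973). For CDH6 they were C2CD4C (r = 0.978), SCIN (0.975) and TSEN34 (0.969), and for PAX2 FSD1 (0.985), MYH8 (0.983) and NELFA (0.972). For PAX8 they were MMP1 (r = 0.96), ZIC2 (0.954) and LINC00886 (0.947), for LHX1 CYP27B1 (0.936), FIZ1 (0.928) and BEND3 (0.916), and for WT1 RCCD1 (0.966), UBE2C (0.959) and E4F1 (0.95).

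HIF peaks were found within 10 kb of a start site for 6 of the 7 genes in at least 1 list, against 38.7% of the 22526 genes placed on the annotation and 54.9% of the 13942 that were also tested for expression. By list, the count was 3 of 7 (PAX2, PAX8 and WT1) for HIF-2α in control cells, where 3.74% of placed genes had a peak, and 5 of 7 for HIF-1β in control cells (18.2%), which added CDH6 and CDH16. HIF-1α in HIF-1α re-expressing cells was listed at PAX2, PAX8, LHX1 and CDH16 (23.8%), and HIF-1β in those cells at 6 of 7 (27.8%). HIF-2α in HIF-1α re-expressing cells was listed at WT1 and CDH16 (3.02%). In HIF-2α overexpressing cells HIF-2α (10.4%) and HIF-1β (11.3%) were each listed at PAX2, PAX8, WT1 and CDH16. Among genes tested for expression, as 6 of the 7 were, these shares were higher in every list. They were 5.34% for HIF-2α and 25.7% for HIF-1β in control cells. For HIF-1α, HIF-1β and HIF-2α in HIF-1α re-expressing cells they were 34.5%, 40.7% and 4.22%. For HIF-2α and HIF-1β in HIF-2α overexpressing cells they were 14.5% and 16.2%. PAX2, PAX8, WT1 and CDH16 had peaks of at least 6 of the 7 lists within 10 kb, as did 2.65% of the placed genes. For CDH16, 4 of its 6 lists rest on the site beside RRAD alone, and for LHX1 the HIF-1β peak is the one at AATF. These genes have 4 to 21 annotated start sites each, with WT1 at 21, where the median gene has 5, and a gene with more start sites has more sequence within reach of a peak. Counted from the 5′ end of each gene alone, 6 of 7 genes still had a peak (34.2% of all genes), with 2 of 7 for HIF-2α in control cells (2.29%), 3 of 7 for HIF-1α (20.8%) and 3 of 7 for overexpressed HIF-2α (7.22%). No test is given, since 7 genes share loci with neighbours and each list is 1 library.

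**Figure D4:**
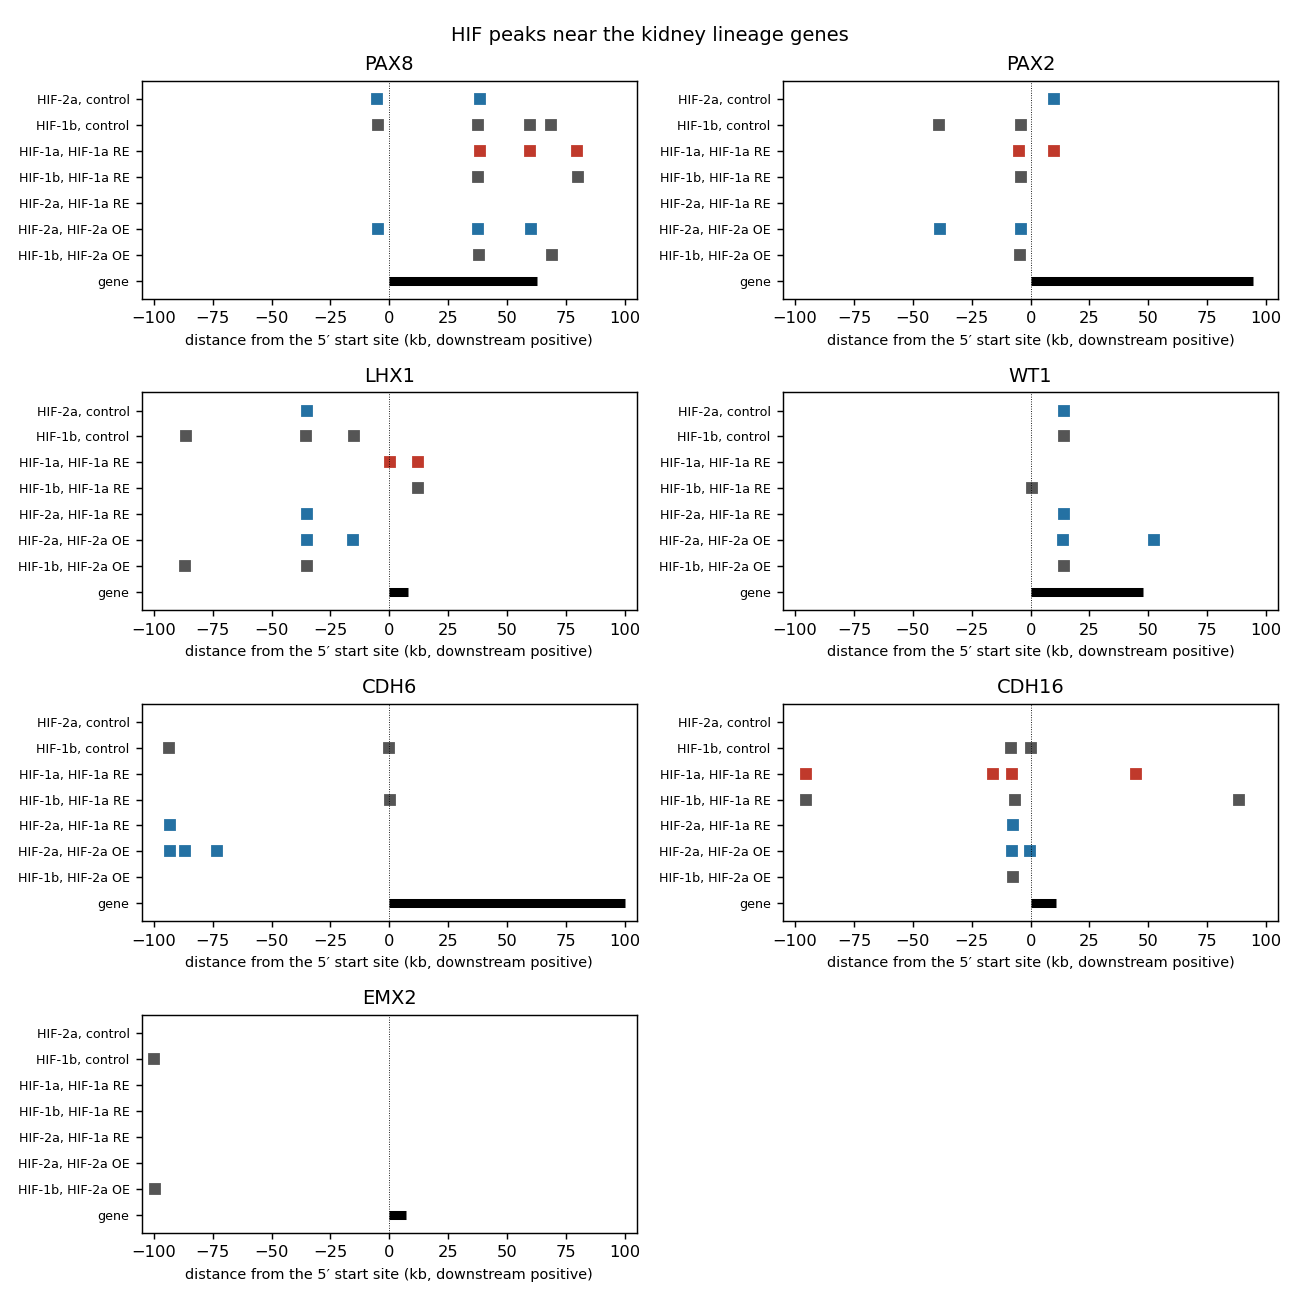
Midpoints of the peaks within 100 kb of each kidney lineage gene, as distance in kb from the 5′ start site along the gene (x axis), one row per list (HIF-1α red, HIF-2α blue, HIF-1β grey; HIF-1a RE and HIF-2a OE are the re-expressing and overexpressing cells); the black bar is the gene, drawn to 100 kb for CDH6. The PAX8 intron site fills 6 rows and the WT1 intron site 5, and EMX2 has peaks only near its left edge.

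**Figure D5:**
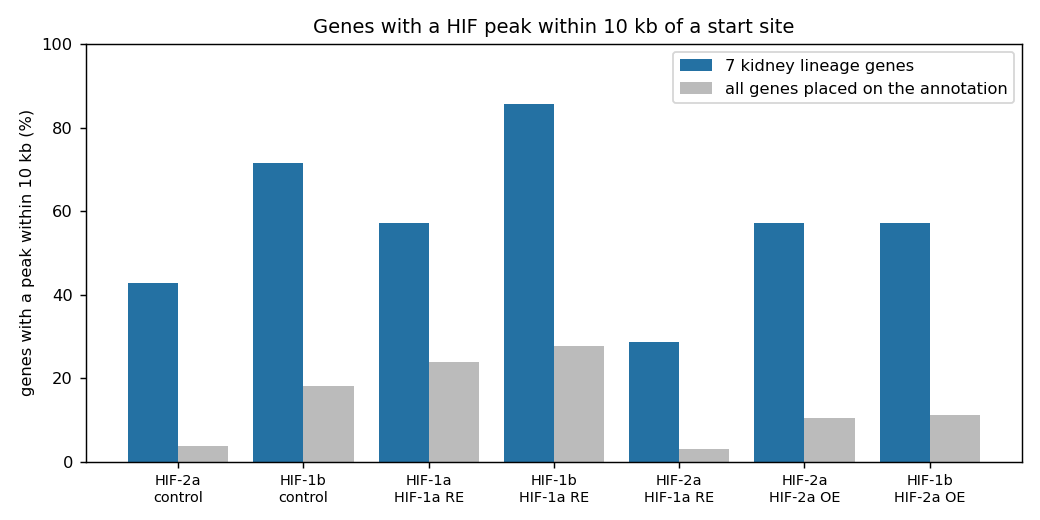
Percent of genes with a peak within 10 kb of a start site (y axis, from 0) in each of the 7 lists, for the 7 kidney lineage genes (blue) and for the 22526 genes placed on the annotation (grey). The blue bars stand for 2 to 6 genes each. Genes tested for expression, which are not drawn, have higher shares than the grey bars in every list.

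PAX2 and PAX8 had HIF-1α and HIF-2α sites and no called difference in edgeR. CDH6, the only gene of the 6 called in the blocked edgeR fit over all libraries, had HIF-1β peaks alone within 10 kb. Its HIF-2α peaks were farther away, at 46.1 kb or more from a start site. PAX2, WT1 and CDH16, which DESeq2 called with the block as well, had HIF-α peaks there. HIF-1α in HIF-1α re-expressing cells was listed at the start of LHX1, whose level in those cells overlapped that of the control cells.

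Genes that share a role with these were described in the same fits, from lists chosen with earlier results known, and none passed in the pool-only fit. Of 25 other transcription regulators of kidney development, 14 were tested, and SALL1 (21.2 to 69.2 CPM) and FOXD1 (11.8 to 33.6 CPM) were among the most abundant. In the blocked fit none of the 14 was lower in HIF-1α re-expressing than in HIF-2α overexpressing cells. Since 1.38% of all tested genes were lower there, 0 of 14 says little. Among those of the list that were higher (4.54% of all tested genes were) were GATA3, of the collecting duct lineage (2.86, SE 0.43, adjusted p = 0.0081), and SALL1, of the nephron progenitors (0.98, SE 0.23, adjusted p = 0.0383). None of the 14 passed in either comparison with control cells, where 7.96% and 0.267% of all tested genes did. At such shares 0 of 14 says little in either comparison. How many genes were called for HIF-1α re-expressing against control cells depended on the number left out of the blocked fit. It was 295 genes without the libraries numbered 1, 0 without those numbered 2 and 1 without those numbered 3. The calls given here for this comparison were thus lost without number 2, and at most 1 of them could hold without number 3. Both fits also had fewer libraries. Of 16 signals of bud and nephron induction 5 were tested, and SPRY1, a brake on RET signalling, was higher in HIF-1α re-expressing than in control cells by 3.07 (SE 0.67, adjusted p = 0.0385). JAG1, a Notch ligand, was higher than in HIF-2α overexpressing cells by 1.21 (SE 0.24, adjusted p = 0.021), as was SPRY1. RET itself had at most 5 counts in a library.

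Of 20 proximal tubule markers 10 were tested, with levels from abundant to near 0. ANPEP, a peptidase of the brush border, was at 27.6 to 195 CPM, while the endocytic receptor LRP2 and the transporter SLC22A6 had at most 2 counts in any library. AQP1, the water channel (2.51, SE 0.66, adjusted p = 0.0493), and MME, another such peptidase (1.39, SE 0.33, adjusted p = 0.0427), were higher in HIF-1α re-expressing than in control cells in the blocked fit. AQP1 had 15, 22 and 450 counts in the HIF-1α re-expressing libraries against 9, 5 and 17 in the control libraries, so its level lies mostly in library 3. ANPEP (2.07, SE 0.26, adjusted p = 0.00402) and MIOX (1.41, SE 0.32, adjusted p = 0.0356) were higher in HIF-1α re-expressing than in HIF-2α overexpressing cells. Of 18 markers of the loop, distal tubule and collecting duct 8 were tested. MUC1 was higher than in control cells by 1.99 (SE 0.50, adjusted p = 0.0461), and CLDN16 and SCNN1A were higher than in HIF-2α overexpressing cells by 1.97 and 1.45. Of 7 podocyte markers 4 were tested. PODXL was higher in HIF-1α re-expressing than in control cells by 1.05 (SE 0.19, adjusted p = 0.0337), SYNPO was lower than in HIF-2α overexpressing cells by a log2 fold change of -1.03 (SE 0.20, adjusted p = 0.0222), and all 4 passed the test of the replicate number, which 15.4% of all tested genes passed. No marker of these lists passed for HIF-2α overexpressing against control cells, where 0.267% of all tested genes did, so this says little. Among all tested genes 5.41% were higher in HIF-1α re-expressing than in control cells. Against HIF-2α overexpressing cells 4.54% were higher and 1.38% were lower.

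Among the families of these genes, PAX9 was higher in HIF-1α re-expressing than in HIF-2α overexpressing cells by 2.96 (SE 0.60, adjusted p = 0.024), and PAX6 did not pass. Of 21 other cadherins 10 were tested, and CDH2 (N-cadherin), at 204 to 388 CPM, had the highest mean CPM. In the blocked fit 4 of the 10 were higher in HIF-1α re-expressing than in HIF-2α overexpressing cells (4.54% of all tested genes were), as CDH6 was: CDH11 by 4.16 (SE 0.55), CDH4 by 2.91 (SE 0.50), CDH1 (E-cadherin) by 2.83 (SE 0.47) and CDH13 by 2.02 (SE 0.25), with adjusted p of 0.0052, 0.0132, 0.0123 and 0.00418. CDH1, CDH11 and CDH13, 3 of the 10, were also higher than in control cells (5.41% of all tested genes were), by 3.16, 1.89 and 1.23. CDH1 had 1, 18 and 404 counts in the HIF-1α re-expressing libraries against 0, 2 and 41 in the HIF-2α overexpressing ones and 0, 1 and 36 in control libraries, and was highest in number 3 of each pool, as CDH16 was. The number passed for 6 of these 10 cadherins, against 15.4% of all tested genes.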

How the data were processed

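For the 9 RNA-seq libraries the authors deposited a table of raw counts, 1 row per gene symbol and without normalization. Per the study's methods and the submitters' processing notes they came from TopHat2 2.0.8b and Bowtie 1.0.0 on GRCh37 and HTSeq 0.5.4p3 on UCSC genes, with reads that leave an exon not counted. The deposited peaks are 2500 bp windows found by MACS as well as T-PIC in reads that BWA 0.7.5a-r405 had aligned. The depth of the ChIP-seq libraries is unknown, and the 3 input samples were not analysed here.

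Counts were fitted in edgeR 4.0.16 (R 4.3.3) on all 9 libraries, with a term for the pool alone, TMM scaling and the filterByExpr function. The quasi-likelihood test was two-sided, and p-values were adjusted over the 14225 genes (Benjamini-Hochberg, threshold 0.05). Both comparisons with control cells share the control libraries. The labels do not say that replicates were separate cultures, so p-values measure only the spread between these libraries. Deviations from the pool means correlated at 0.348 to 0.652 across genes in the 9 pairs that share a number between pools, and at -0.478 to 0.0281 in the 18 pairs that do not. The numbers were therefore taken to pair the libraries, and the fit with the replicate block is given beside the other. The alternatives were DESeq2 1.42.0, other scaling and filters, single libraries left out and, chosen after seeing the data, the block with a number left out and the block in DESeq2. The fits were tested on simulated data.

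Of 23441 symbols, 20654 were placed on GENCODE v44 (lifted to GRCh37) by name and 1881 by a RefSeq synonym, and 906 were not matched. A gene has a peak when a peak midpoint lies within 10 kb of any of its start sites. Peaks that share at least 1 base were merged into a site. Variance shares are sums of squares of log2 CPM (prior count 2).

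The 7 genes and the lists were chosen with earlier results of these data known. Named are the 7 genes, HIF1A and EPAS1, the 3 genes with the highest Pearson r to each tested gene, and from each list the called genes (at most 4 per comparison, by fold change) and the 3 with the highest mean CPM. CA9, the other list genes given with counts, the PAX genes and the marker genes at 0 were chosen after their values were seen. Some genes of the lists and a sequence are not reported here.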

Additional observations from a re-analysis of the deposited data

How the results depend on the processing

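Of 324 values of the fold changes of the 6 tested genes under the alternatives, 286 kept their direction and their side of the threshold, 11 passed it, and 27 reversed, all of the latter with a library or a number left out. Because the numbers pair the libraries, the fit with the replicate block is the first alternative given. For HIF-1α re-expressing against control cells, HIF-2α overexpressing against control cells and HIF-1α re-expressing against HIF-2α overexpressing cells in this order, the genes called were 0, 0 and 7 with the pool alone and 1132, 38 and 843 with the block. They were 753, 65 and 649 in DESeq2, 0, 1 and 82 without a low-count filter, and 0, 0 and 31 with at least 1 CPM in 3 libraries. With a single library left out they were 0 to 0, 0 to 2 and 0 to 29, the last without the HIF-1α re-expressing library 1. The cause of these changes was not tested. With the block and, chosen after seeing the data, without the libraries of 1 number, they were 295, 30 and 334 without number 1, 0, 9 and 386 without number 2 and 1, 7 and 265 without number 3, and with the block in DESeq2 3036, 487 and 1799. Of the kidney lineage genes, 0, 0 and 1 (CDH6) were called with the block, which changed no other call of theirs, 0 to 1, 0 to 0 and 0 to 2 with the block and without 1 number, and 2 (PAX2 and WT1), 2 (PAX2 and CDH6) and 2 (CDH6 and CDH16) with the block in DESeq2. RLE size factors moved no call of these genes. The replicate number called 1983 to 2511 genes under the other scaling and filters, against 2190.

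With 1 library left out, the log2 fold changes that reversed ranged as follows. For HIF-1α re-expressing against control cells, PAX8 was between -0.27 and 0.19, CDH6 between -0.29 and 1.28, and CDH16 between -1.58 and 3.80. For HIF-2α overexpressing against control cells, WT1 was between -0.38 and 0.18 and CDH16 between -3.33 and 1.98. For HIF-1α re-expressing against HIF-2α overexpressing cells, PAX2 was between -0.28 and 0.27, LHX1 between -0.28 and 0.75, and CDH16 between -1.20 and 4.75. With the block and 1 number left out, PAX8 was at -0.39, or at 0.077 without number 1 and 0.085 without number 3, LHX1 between -0.74 and 0.11 and CDH6 between -0.22 and 0.47 in HIF-1α re-expressing against control cells. WT1 was between -0.35 and 0.38 in HIF-2α overexpressing against control cells, and PAX2 between -0.12 and 0.080 and LHX1 at -0.27, -0.024 and 1.04 in HIF-1α re-expressing against HIF-2α overexpressing cells. The count of 6 of 7 genes with a peak was 6 within 5 kb, within 50 kb and from the 5′ end alone, and 7 within 100 kb. By list, HIF-2α in HIF-1α re-expressing cells went from 2 genes to 1 within 5 kb or from the 5′ end alone and to 4 within 100 kb, and HIF-1β in HIF-2α overexpressing cells from 4 to 2 from the 5′ end alone.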
